A study of Mus musculus with 10 samples.

Results

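The regions described here are ends of mouse transcripts whose levels moved in opposite directions in the DIDO3ΔE16 and DIDO3ΔCT+HADIDO3 embryonic stem cell (ESC) lines, each compared with WT. Each region, called a feature, is the 3′ untranslated part of a transcript with 2 kb added downstream. Its level is given in TPM, a share of the reads of a library that is corrected for feature length. The features were selected on these levels: of 43031 features, 15615 shared no base with another feature of their strand, and 9497 of those, called eligible, had a TPM above 1 in all 3 libraries of at least 1 group. A feature was kept if the group mean of log2(TPM + 0.1) differed from WT by at least 0.5 in both lines, with opposite sign, and if all 3 values of each line lay outside the WT range. This left 605 features (6.37% of the eligible features) of 570 genes. Of these, 325 (3.42%, 314 genes) were higher in DIDO3ΔE16 and lower in DIDO3ΔCT+HADIDO3, and 280 (2.95%, 257 genes) were lower in DIDO3ΔE16 and higher in DIDO3ΔCT+HADIDO3. No gene was found for 3 and 12 features, respectively. Under the same criteria 730 eligible features (7.69%) moved alike, 567 of them higher and 163 lower in both lines. Because the differences from WT chose the features, they are given as a description and are not tested.

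ESC of 3 genotypes were compared, with 3 RNA-seq libraries each: WT, DIDO3ΔE16, in which the DIDO3-specific exon16 was deleted, and DIDO3ΔCT+HADIDO3, in which cells carrying the older C-terminal deletion in the same exon express HA-tagged DIDO3. The lines therefore differ from each other in the allele and in the transgene. All are labelled C57BL/6, and all were grown in serum and LIF on gelatin or on fibroblasts of mouse embryos (MEF) that mitomycin C had arrested; the labels do not say which library came from which surface, nor whether the libraries of a group are separate cultures or clones. The labels hold 4 WT samples, but replicates 2 and 3 carry the same library number and were counted as 1 library. In the sentences below the WT values are in the order replicate 1, replicate 2-3 and replicate 4, and those of the lines in the order 1, 2 and 3. WT replicates 1 and 4 were run on flow cells of another series than the other 7 libraries. Against WT replicate 2-3 alone, 290 of the 325 and 227 of the 280 features met the criteria again. These features already lay outside a WT range that includes this library, so only the size could fail. The range of 1 library is also a looser condition, and 376 and 301 features met the criteria in all. These counts do not show whether the flow cells had a part. The bases that fell in features amounted to 1.46 to 2.61 Gb per library. The most distal feature of Dido1, the gene that encodes DIDO3, had 17.9, 16.8 and 13.7 TPM in WT, 0.546, 0.511 and 0.307 in DIDO3ΔE16 and, for DIDO3ΔCT+HADIDO3, 12.1, 11.5 and 10.9. The low level in DIDO3ΔE16 follows its label. For DIDO3ΔCT+HADIDO3 the labels do not say what level to expect at this feature.

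The end of a transcript is set by cleavage and polyadenylation, usually directed by an AATAAA hexamer or the variant ATTAAA shortly upstream of the cleavage site. Many genes have several such ends, and an end used within an intron yields a shorter transcript. ESC in serum and LIF are mixed populations that express germline and cleavage-stage genes at low and variable levels. Cultures grown on feeder cells also contain fibroblast RNA, rich in collagens and other matrix genes.

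The ends of 6 features are shown, taken from those with the largest differences in both lines whose annotated transcript end could be read. They were not chosen for their hexamers and do not stand for their directions. The shares over each direction follow below. Each run holds 30 bases of the annotated transcript in GENCODE M21 (mm10), 5′ to 3′ on the strand of the gene, with a hexamer in capitals where the last 50 bases held AATAAA or ATTAAA. Runs without capitals are the last 30 bases of transcripts with neither hexamer in that window. The first 3 genes were higher in DIDO3ΔE16 and the last 3 lower.
Gm13040 (chr4:143542442-143542471, forward strand): catgtagtAATAAAtaataataataccaca
Xlr5a (chrX:73107635-73107664, reverse strand): atgctgtatttATTAAAatgaatgcttaga
Xlr3b (chrX:73202901-73202930, forward strand): ttgatttAATAAAcatgaaatagtttcaga
Tenm3 (chr8:48275915-48275944, reverse strand): aagtgtctgtaatttttagatccctctttg
Neurog3 (chr10:62134734-62134763, forward strand): gacggttcctgaagcactgtttgtctccct
Fhad1 (chr4:141962875-141962904, reverse strand): gatgggctctaggttcagtgagagtctgtg

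A transcript with the same end as the feature could be read for 148 of the 325 features higher in DIDO3ΔE16, and 104 of them (70.3%) held either hexamer in the last 50 bases of the transcript strand. Among the features lower in DIDO3ΔE16 it was 87 of 155 (56.1%), and among the eligible features 61.0% of 4415. The hexamers are a description of the letters at the annotated ends, and they do not show where the RNA was cleaved in these cells.

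The upstream sequences of 4 Xlr genes are also shown, since 6 Xlr genes moved together. These genes encode proteins related to the synaptonemal complex protein SYCP3. Each run is the 250 bases before the RefSeq start (GRCm38.p6), 5′ to 3′ on the strand of the gene, with each CCAAT (on either strand) in capitals.
Xlr3a (chrX:73097096-73097345, reverse strand): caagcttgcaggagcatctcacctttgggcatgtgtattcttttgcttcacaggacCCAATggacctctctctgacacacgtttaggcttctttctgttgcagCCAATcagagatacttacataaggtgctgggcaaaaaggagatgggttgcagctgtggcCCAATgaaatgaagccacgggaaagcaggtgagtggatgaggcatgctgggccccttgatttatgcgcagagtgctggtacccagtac
Xlr3b (chrX:73191929-73192178, forward strand): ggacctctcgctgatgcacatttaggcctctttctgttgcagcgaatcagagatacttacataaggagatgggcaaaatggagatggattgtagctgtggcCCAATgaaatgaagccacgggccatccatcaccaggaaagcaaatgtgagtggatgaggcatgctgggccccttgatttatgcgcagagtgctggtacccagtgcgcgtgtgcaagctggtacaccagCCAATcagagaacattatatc
Xlr3c (chrX:73265391-73265640, reverse strand): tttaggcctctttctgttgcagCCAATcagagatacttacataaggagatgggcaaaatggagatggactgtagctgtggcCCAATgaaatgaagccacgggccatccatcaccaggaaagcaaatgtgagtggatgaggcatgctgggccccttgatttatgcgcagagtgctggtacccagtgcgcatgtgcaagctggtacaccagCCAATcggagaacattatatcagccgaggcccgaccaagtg
Xlr4a (chrX:73082508-73082757, reverse strand): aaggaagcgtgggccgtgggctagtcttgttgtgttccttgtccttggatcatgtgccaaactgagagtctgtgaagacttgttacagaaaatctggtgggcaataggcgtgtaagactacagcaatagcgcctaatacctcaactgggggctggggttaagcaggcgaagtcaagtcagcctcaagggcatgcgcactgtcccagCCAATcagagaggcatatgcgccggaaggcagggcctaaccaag

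The letters CCAAT, the core of the motif bound by the factor NF-Y, occur on either strand in the windows of 5 of the 6 Xlr genes. Of the windows not printed, that of Xlr5a held 0 and that of Xlr5b 1. Several of the 6 windows are near copies of each other, as aligned below. They are thus not separate observations, and nothing is read from their count. Over 27025 genes, 34.5% of the windows held CCAAT. Among the genes higher in DIDO3ΔE16 with a RefSeq entry it was 35.9% of 234, and among those lower 38.6% of 202. TATAAA was found in 13.0% of all windows, in 14.1% of those of genes higher and in 5.94% of those of genes lower in DIDO3ΔE16. CACGTG was found in 6.05%, 6.84% and 10.4%, and TTCCCGC in 3.84%, 4.27% and 6.44%, respectively, and in none of the Xlr windows. These matches are a description of the letters and not of binding. When the RefSeq entries, which run 50 bases past the start, were aligned, those of Xlr5a and Xlr5b were identical over all 255 aligned positions. Xlr3b and Xlr3c shared 94.3%, Xlr3a and Xlr3b 87.5%, and Xlr3a and Xlr3c 88.6% of aligned positions.

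Levels differed between the directions before any fold change is taken. The features higher in DIDO3ΔE16 had a median of the mean TPM of 3.47 in WT, 9.51 in DIDO3ΔE16 and, for DIDO3ΔCT+HADIDO3, 0.951. Those lower in DIDO3ΔE16 had 4.80 in WT, 2.34 in DIDO3ΔE16 and, for DIDO3ΔCT+HADIDO3, 10.6. The eligible features had 14.4, 15 and 16.2, so both sets lay in the lower part of the range of levels. The median difference from WT on the log2(TPM + 0.1) scale, which understates the change of weak features, was 1.10 in DIDO3ΔE16 and -1.21 in DIDO3ΔCT+HADIDO3 for the former set, and -0.85 and 0.86 for the latter. Over all eligible features it was 0.01 and 0.09. A size of at least 1 in both lines was reached by 128 and by 52 features, respectively.

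How the features passed the level filter bears on what these values can show. Of the 325, 87 exceeded 1 TPM in all libraries of DIDO3ΔE16 but not of WT or DIDO3ΔCT+HADIDO3, and 146 exceeded it in all 9 libraries. In DIDO3ΔCT+HADIDO3 122 of them had a mean under 0.5 TPM and 15 were listed at 0 in all 3 libraries. Of the 280, 25 passed through DIDO3ΔCT+HADIDO3 alone and 189 exceeded 1 TPM in all libraries. A feature that passes through the higher line alone had to differ, so these counts support nothing by themselves. The features just inside the size threshold were Mogat2 (-0.50 in DIDO3ΔE16 and 0.67 in DIDO3ΔCT+HADIDO3), Serpinf1 (0.50 and -2.64) and Abcb1b (0.51 and -0.87). Just outside it were Ica1, Fam135a and Srd5a1, each with a smaller difference of 0.50 in size after rounding.

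**Figure D1:**
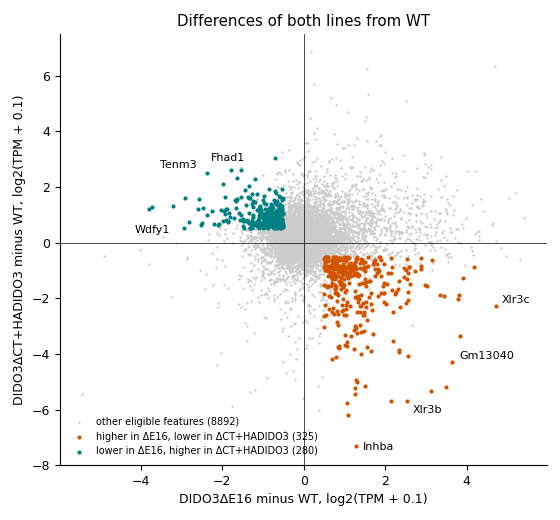
Difference from WT in the group mean of log2(TPM + 0.1), with DIDO3ΔE16 on the horizontal axis and DIDO3ΔCT+HADIDO3 on the vertical axis, 1 point per eligible feature. The 325 features higher in DIDO3ΔE16 fill the lower right and reach a DIDO3ΔCT+HADIDO3 difference of -7.29 (Inhba), and the 280 lower in DIDO3ΔE16 fill the upper left.

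The same features were looked up in limma fits across all features, where the call needs 0.7 or more on the log2 scale in size and an adjusted p (Benjamini-Hochberg) below 0.05. Of the 325 features, 224 were called higher in DIDO3ΔE16 than in WT, where 8.4% of 24677 tested features were, and 222 of the 288 tested were called lower in DIDO3ΔCT+HADIDO3, where 5.85% of 24720 were. Of the 280, 154 of 273 tested were called lower in DIDO3ΔE16 (4.24% of all tested) and 152 of 280 were called higher in DIDO3ΔCT+HADIDO3 (8.03%). In the direct comparison of the lines, 288 of 288 tested were called higher and 273 of 273 lower in DIDO3ΔE16, against 11.9% and 11.4% of 24883. The rule used these contrasts, and nothing is read from the counts. All 3 values lay above the WT range for 30.1% of eligible features in DIDO3ΔE16 and for 38.4% in DIDO3ΔCT+HADIDO3, and below it for 26.6% and 25.2%.

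Many of the leading features higher in DIDO3ΔE16 lay in clusters of germline-type genes on chromosomes X and 4. Of 12 eligible features between 73066223 and 73497936 on chromosome X, 10 belonged to the set: Pnma3, Xlr4a, Xlr3a, Xlr5a, Gm14685, DXBay18, Xlr5b, Xlr3b, Xlr3c and Bgn. Xlr3a had WT levels of 42.8, 43.7 and 45.8 TPM, DIDO3ΔE16 levels of 213, 196 and 177 and DIDO3ΔCT+HADIDO3 levels of 0.624, 0.978 and 0.727. Xlr3b had 26.6, 29 and 30.7 TPM in the WT libraries, 187, 167 and 149 in those of DIDO3ΔE16 and 0.269, 0.556 and 0.616 in those of DIDO3ΔCT+HADIDO3. Xlr3c had WT levels of 7.36, 8.82 and 7.49 TPM, DIDO3ΔE16 levels of 225, 211 and 196 and DIDO3ΔCT+HADIDO3 levels of 1.83, 1.13 and 1.81. Xlr3a and Xlr3b were under 1 TPM in each DIDO3ΔCT+HADIDO3 library, and Xlr3c had the lowest WT level of the 3. The differences from WT were 2.14 ± 0.08 in DIDO3ΔE16 and -5.68 ± 0.17 in DIDO3ΔCT+HADIDO3 for Xlr3a, 2.54 ± 0.11 in DIDO3ΔE16 and -5.69 ± 0.31 in DIDO3ΔCT+HADIDO3 for Xlr3b and 4.72 ± 0.10 in DIDO3ΔE16 and -2.27 ± 0.23 in DIDO3ΔCT+HADIDO3 for Xlr3c (difference in mean log2(TPM + 0.1) ± SE, 3 libraries per group, as for all differences below).

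Xlr5a had 5.18, 5.59 and 7.05 TPM in the WT libraries, 58, 51.2 and 49 in those of DIDO3ΔE16 and 0, 0.085 and 0.073 in those of DIDO3ΔCT+HADIDO3. Xlr5b had WT levels of 6.34, 6.3 and 5.13 TPM, DIDO3ΔE16 levels of 75, 69.5 and 59.7 and DIDO3ΔCT+HADIDO3 levels of 0.091, 0 and 0.126, and Xlr4a had 3.63, 4.3 and 2.96 TPM in the WT libraries, 19.3, 19.7 and 17 in those of DIDO3ΔE16 and 0.151, 0.251 and 0.055 in those of DIDO3ΔCT+HADIDO3. Their levels in DIDO3ΔCT+HADIDO3 lay near the lower end of what was measured, and single libraries were listed at 0. Xlr3a, Xlr3b and Xlr3c, and likewise Xlr5a and Xlr5b, are related copies. The likeness of the features themselves was not measured, but reads may have been split among such copies, and the order of their levels is uncertain. Pnma3, a gene derived from a retrotransposon gag, was also in the run and had WT levels of 6.18, 6.28 and 6.68 TPM, DIDO3ΔE16 levels of 12.5, 10.9 and 10.1 and DIDO3ΔCT+HADIDO3 levels of 2.04, 1.45 and 1.72. Bgn, which encodes the matrix proteoglycan biglycan, closed it with 72.1, 78.5 and 86.7 TPM in the WT libraries, 156, 164 and 162 in those of DIDO3ΔE16 and 6.24, 6.47 and 5.43 in those of DIDO3ΔCT+HADIDO3.

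A second run on chromosome 4, between 143105391 and 143731158, held 6 of its 7 eligible features: Prdm2, Gm13040, Gm13057, BC080695, Gm13083 and Gm13078. All but Prdm2 lie in the PRAME-like gene cluster, whose genes are expressed in germ cells and early embryos. Gm13040 had the largest smaller difference of all 605 features when 0.1 was added to TPM, with WT levels of 4.24, 3.64 and 4.4 TPM, DIDO3ΔE16 levels of 66.2, 53.3 and 40.8 and DIDO3ΔCT+HADIDO3 levels of 0.086, 0.007 and 0.387 and differences of 3.65 ± 0.22 in DIDO3ΔE16 and -4.29 ± 0.64 in DIDO3ΔCT+HADIDO3. Its DIDO3ΔCT+HADIDO3 difference was -5.56 with 0.01 added and -2.14 with 1 added, and Gm13057 (3.88 and -3.79) and Xlr5a (2.96 and -2.71), respectively, then stood ahead of it. Gm13057 had 2.98, 2.81 and 4.79 TPM in the WT libraries, 61.9, 51.7 and 40.5 in those of DIDO3ΔE16 and 0.371, 0.188 and 0.191 in those of DIDO3ΔCT+HADIDO3. BC080695 had WT levels of 5.56, 5.31 and 6.1 TPM, DIDO3ΔE16 levels of 50.6, 47.9 and 39 and DIDO3ΔCT+HADIDO3 levels of 1.45, 2.61 and 1.8. The PRAME-like genes are related copies and may share reads. Prdm2, which encodes a zinc finger protein with a SET-type domain, differed less, with 13.9, 15.3 and 14.5 TPM in the WT libraries, 24.1, 23.3 and 23 in those of DIDO3ΔE16 and 5.65, 5.86 and 5.83 in those of DIDO3ΔCT+HADIDO3.

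Lists of germline and early embryo genes were only in part of this direction. Of the 20 eligible features of a list of germline genes, 6 (30%) belonged to the set higher in DIDO3ΔE16 (Rhox5 and 5 Xlr genes) and 0 to the other, and 14 to neither. Of all eligible features, 3.42% were in the former set and 2.95% in the latter. Over the whole list, with each gene represented by its most abundant feature, 11 of 33 tested genes were called higher and 2 lower in DIDO3ΔE16, against 10.9% and 4.12% of all genes tested, and 8 of 31 were called higher and as many lower in DIDO3ΔCT+HADIDO3, against 9.1% and 7.48%. The calls of the list thus leaned to higher levels in DIDO3ΔE16 and were balanced in DIDO3ΔCT+HADIDO3. Rhox5, a homeobox gene of the reproductive tract and placenta, had WT levels of 18, 18.8 and 17.1 TPM, DIDO3ΔE16 levels of 34.1, 29.1 and 39 and DIDO3ΔCT+HADIDO3 levels of 6.17, 5.99 and 6.62. Of 17 eligible features of a list of 2-cell-stage genes, those of Gm13078 and Tdpoz1 were in the set (11.8%, against 3.42% of all eligible features). In that list 15 of 17 tested genes were called higher in DIDO3ΔE16 and 9 of 16 higher in DIDO3ΔCT+HADIDO3. The median difference of its eligible features was 2.32 in DIDO3ΔE16 and 1.24 in DIDO3ΔCT+HADIDO3, so the list as a whole did not have opposite directions.

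Obox6, an oocyte and early embryo homeobox gene named after its values were seen, had 5.08, 4.72 and 6.54 TPM in the WT libraries, 10.9, 8.68 and 8.96 in those of DIDO3ΔE16 and 0.414, 0.161 and 0.147 in those of DIDO3ΔCT+HADIDO3. Zfy1, a zinc finger gene of the Y chromosome, had 2.12, 1.43 and 1.31 TPM in WT and 9.22, 9.59 and 10.9 in DIDO3ΔE16 and was listed at 0 in all 3 DIDO3ΔCT+HADIDO3 libraries. Its neighbour Gm2098 had 0.226, 0.525 and 0.16 TPM in WT and 4.68, 3.69 and 3.67 in DIDO3ΔE16 and was also listed at 0. Both lie among other Y features with the same zeros: in all 3 DIDO3ΔCT+HADIDO3 libraries 10 of the 14 Y features that exceeded 1 TPM in some library were listed at 0, those of Eif2s3y and Kdm5d among them. In WT and DIDO3ΔE16 Eif2s3y had 9.15 to 13.1 TPM.

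Among the remaining leading features, Clpb, which encodes a mitochondrial protein disaggregase, had WT levels of 2.24, 2.28 and 2.15 TPM, DIDO3ΔE16 levels of 12, 12.1 and 11.5 and DIDO3ΔCT+HADIDO3 levels of 0.419, 0.261 and 0.437 and differences of 2.37 ± 0.03 in DIDO3ΔE16 and -2.32 ± 0.18 in DIDO3ΔCT+HADIDO3. H2-M10.4, a nonclassical MHC class I gene, had 0.867, 1.47 and 0.897 TPM in WT and 4.31, 6.45 and 4.88 in DIDO3ΔE16 and was listed at 0 in DIDO3ΔCT+HADIDO3. 2410017I17Rik had 3.0, 3.46 and 0.918 TPM in the WT libraries, 10.4, 11.1 and 12.5 in those of DIDO3ΔE16 and 0.035, 0 and 0.171 in those of DIDO3ΔCT+HADIDO3, and its feature overlaps a feature of the opposite strand. WT replicate 4 stood apart from the other WT libraries for that gene, but not as far as either line. Nkx1-2, a homeobox gene named after its values were seen, had WT levels of 3.38, 4.12 and 2.8 TPM, DIDO3ΔE16 levels of 33.8, 34.5 and 38.3 and DIDO3ΔCT+HADIDO3 levels of 0.678, 0.888 and 1.01.

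Genes of the extracellular matrix and of fibroblasts formed another group with this direction. Of 36 eligible features of collagens and laminins, 13 were higher in DIDO3ΔE16 and lower in DIDO3ΔCT+HADIDO3, and 1 (of Lama1) had the other direction. Of all eligible features, 3.42% had the former direction and 2.95% the latter. Another feature of Lama1 that shares no base was lower in both lines. Its mean levels were 23.3 TPM in WT, 11.8 in DIDO3ΔE16 and, for DIDO3ΔCT+HADIDO3, 12.2. Over all genes of the collagen and laminin list, 20 of 46 tested were called higher and 6 lower in DIDO3ΔE16, and 5 of 44 were called higher and 16 lower in DIDO3ΔCT+HADIDO3. Over all genes tested these shares were 10.9% and 4.12% in DIDO3ΔE16 and 9.1% and 7.48% in DIDO3ΔCT+HADIDO3. Col1a1, which encodes the main chain of type I collagen, had 10.2, 11.4 and 13.4 TPM in the WT libraries, 28.2, 28 and 29.9 in those of DIDO3ΔE16 and 0.963, 0.957 and 1.51 in those of DIDO3ΔCT+HADIDO3, with differences of 1.3 ± 0.12 in DIDO3ΔE16 and -3.26 ± 0.23 in DIDO3ΔCT+HADIDO3. All 3 features of Col1a2, its partner chain, were in the set, and the one at the end of the gene had WT levels of 18.1, 16.7 and 20.01 TPM, DIDO3ΔE16 levels of 36.5, 39.2 and 38.9 and DIDO3ΔCT+HADIDO3 levels of 0.229, 0.246 and 0.242. Col5a2 had 6.55, 6.01 and 6.03 TPM in the WT libraries, 14.9, 16.3 and 15.7 in those of DIDO3ΔE16 and 0.105, 0.131 and 0.052 in those of DIDO3ΔCT+HADIDO3 at the end of the gene. Col12a1 had WT levels of 7.1, 6.97 and 6.33 TPM, DIDO3ΔE16 levels of 15.9, 16.1 and 16.3 and DIDO3ΔCT+HADIDO3 levels of 0.568, 0.227 and 0.436, and Col8a1 had 8.05, 6.91 and 9.0 TPM in the WT libraries, 18.9, 18.6 and 20.3 in those of DIDO3ΔE16 and 0.194, 0.051 and 0.126 in those of DIDO3ΔCT+HADIDO3. Except for Col1a1 these genes stayed under 1 TPM in every DIDO3ΔCT+HADIDO3 library. Both features of Col3a1 were listed at 0 in all 3 DIDO3ΔCT+HADIDO3 libraries, with 0.63, 1.06 and 0.757 TPM in WT and 2.24, 2.25 and 2.84 in DIDO3ΔE16 at the end of the gene.

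Several of these genes also mark feeder cells, and most measured markers of that list had the same direction. Of 16 feeder fibroblast markers, 11 had a feature that shares no base. For 8 of the 11 (Col1a1, Col1a2, Col3a1, Col5a1, Col5a2, Col6a1, Fbn1 and S100a4) all DIDO3ΔE16 libraries lay above and all DIDO3ΔCT+HADIDO3 libraries below WT, as the rule requires of members. Of the 14 eligible features of the list, 12 (85.7%) were in the set, against 3.42% of all eligible features. With each gene of the list represented by its most abundant feature, 12 of 14 tested genes were called higher in DIDO3ΔE16, and 2 of 11 were called higher and 7 lower in DIDO3ΔCT+HADIDO3, against 10.9% of all genes called higher in the former and 9.1% higher and 7.48% lower in the latter. The summed level of the 11 genes was 103 to 115 TPM in WT, 232 to 240 in DIDO3ΔE16 and, for DIDO3ΔCT+HADIDO3, 69.7 to 76.1. Thy1 was an exception, with 18.1 to 19.7 TPM in WT, 29.6 to 33.9 in DIDO3ΔE16 and, for DIDO3ΔCT+HADIDO3, 52.2 to 56.1. Without it the sums were 83.3 to 95.5, 198 to 207 and 17.5 to 21.1 TPM, respectively. Twist1 had 5.95 to 6.89 TPM in DIDO3ΔCT+HADIDO3, against 5.32 to 6.17 in WT, and Lum was at or near 0 in all libraries. Whether a different share of feeder cells accounts for these features was not tested, and in bulk RNA fewer cells of a type and less RNA per cell cannot be told apart. The sums of primitive endoderm markers, another cell type such cultures can hold, were lower than in WT in both lines: 425 to 475 TPM in WT, 238 to 254 in DIDO3ΔE16 and, for DIDO3ΔCT+HADIDO3, 149 to 162. Those of neural markers were 41.3 to 46.2, 59.4 to 63.6 and 45.8 to 48.1, and those of trophoblast markers 70.6 to 72.2, 80.7 to 85.3 and 42.8 to 47.1, respectively. A single gene set the order of the groups in each of these 2 sums. Without Sox1 the neural sums were 33.2 to 38.4, 26.7 to 28.6 and 33.4 to 35.8 TPM, and without Plet1, itself in the set, the trophoblast sums were 33.2 to 34.3, 24.2 to 26.3 and 33.1 to 36.8 TPM.

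**Figure D2:**
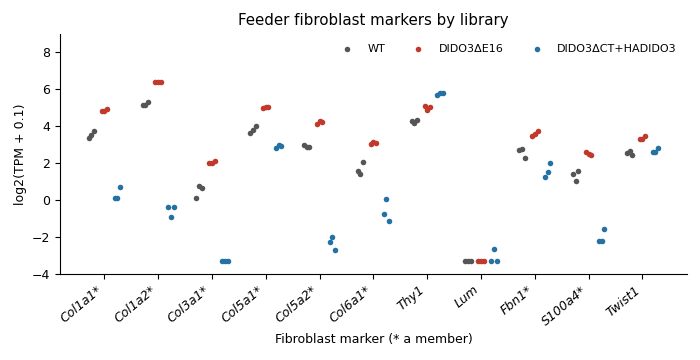
Level of the 11 feeder fibroblast markers with a feature that shares no base, as log2(TPM + 0.1) summed over the features of the gene, with 1 point per library and an asterisk for genes in the set. In 8 genes the DIDO3ΔE16 libraries lie above and the DIDO3ΔCT+HADIDO3 libraries below WT, whereas Thy1 is highest in DIDO3ΔCT+HADIDO3 and Lum is near 0.

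Secreted and cell surface genes of similar pattern, chosen after their values were seen, lay beside the collagens. Inhba, which encodes the activin A subunit, had WT levels of 25.1, 26.6 and 23.8 TPM, DIDO3ΔE16 levels of 55.6, 64.1 and 64.5 and DIDO3ΔCT+HADIDO3 levels of 0, 0.114 and 0.094, and Grem1, a BMP antagonist, had 9.995, 11.9 and 9.2 TPM in the WT libraries, 29.8, 27.4 and 31.8 in those of DIDO3ΔE16 and 0.301, 0.162 and 0.134 in those of DIDO3ΔCT+HADIDO3. Timp2, an inhibitor of matrix metalloproteases, had WT levels of 42.3, 49.2 and 52.1 TPM, DIDO3ΔE16 levels of 117, 123 and 130.0 and DIDO3ΔCT+HADIDO3 levels of 11.8, 11.9 and 10.8. Ptgs2, which encodes the inducible cyclooxygenase, had 10.2, 10.9 and 8.59 TPM in the WT libraries, 18.9, 20.2 and 23.5 in those of DIDO3ΔE16 and 0.518, 0.804 and 0.686 in those of DIDO3ΔCT+HADIDO3. Inhba reached the lowest DIDO3ΔCT+HADIDO3 difference of the set, -7.29 ± 0.35, whereas Timp2 stayed above 10 TPM in each library.

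Of 18 eligible annexin and S100 features, 5 (27.8%, against 3.42% of all eligible features) were in the set (Anxa1, S100a4, S100a5, S100a6 and S100a7a), and the S100 features were neighbours on chromosome 3. S100a6, a calcium-binding protein, had WT levels of 15.1, 17.5 and 19 TPM, DIDO3ΔE16 levels of 25.7, 28.9 and 29.3 and DIDO3ΔCT+HADIDO3 levels of 7.48, 7.21 and 6.34, and Anxa1, a phospholipid-binding protein, had 8.72, 8.2 and 7.71 TPM in the WT libraries, 19.98, 21.7 and 21 in those of DIDO3ΔE16 and 2.18, 1.36 and 3.09 in those of DIDO3ΔCT+HADIDO3. Of 19 eligible integrin and cadherin features, 5 were in the set (Cdh4, Cdh11, Cdh13, Itga8 and Itga11). The collagen-binding integrin gene Itga11 had WT levels of 1.11, 1.15 and 1.92 TPM, DIDO3ΔE16 levels of 2.75, 3.08 and 2.88 and DIDO3ΔCT+HADIDO3 levels of 0.261, 0.343 and 0.12. Cdh11, a mesenchymal cadherin, had 1.43, 1.31 and 1.09 TPM in WT and 2.1, 2.04 and 3.2 in DIDO3ΔE16 and was listed at 0 in DIDO3ΔCT+HADIDO3. Of 12 eligible features of YAP and SRF targets, 3 were in the set (Ankrd1, Axl and Myl9). In none of these 3 lists was a feature lower in DIDO3ΔE16 and higher in DIDO3ΔCT+HADIDO3, against 2.95% of all eligible features. With each gene represented by its most abundant feature, 2 of 21 tested annexin and S100 genes were called higher and 0 lower in DIDO3ΔE16. For integrins and cadherins it was 12 and 2 of 57, and for YAP and SRF targets 0 and 0 of 19. Over all genes these shares were 10.9% and 4.12%. In DIDO3ΔCT+HADIDO3 the calls were 0 and 8 of 21, 6 and 9 of 48 and 1 and 3 of 18, respectively, against 9.1% and 7.48%.

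Transcription factors of development with this direction included Hoxa11, Hoxc8, Hoxd13, Foxc1 and Foxo3. They were 5 of 55 eligible features of the Sox, Klf, Fox and Hox families (9.09%, against 3.42% of all eligible features). Hoxd13, a factor of the limb and genital tubercle, had 3.52, 2.96 and 3.21 TPM in the WT libraries, 7.46, 9.31 and 7.91 in those of DIDO3ΔE16 and 1.84, 2.5 and 2.35 in those of DIDO3ΔCT+HADIDO3, and Hoxa11 had WT levels of 0.535, 0.729 and 0.795 TPM, DIDO3ΔE16 levels of 1.25, 1.66 and 1.6 and DIDO3ΔCT+HADIDO3 levels of 0.139, 0.109 and 0.163. Cdx2, the factor of the trophectoderm, had 0.946, 0.674 and 0.496 TPM in the WT libraries, 1.19, 1.75 and 1.16 in those of DIDO3ΔE16 and 0.384, 0.121 and 0.421 in those of DIDO3ΔCT+HADIDO3, and Eomes, active in trophoblast and mesoderm, had WT levels of 22, 20.4 and 20.6 TPM, DIDO3ΔE16 levels of 42, 44.8 and 42.4 and DIDO3ΔCT+HADIDO3 levels of 14.8, 14.6 and 13.6. All of these but Eomes stayed under 10 TPM in every library. Of 215 eligible features of zinc finger genes, 7 had this direction and 2 the other, together 4.19%, against 6.37% of all eligible features. Cdx2 and Eomes were 2 of 18 eligible features of a germ layer list (11.1%, against 3.42%). By the most abundant feature of each gene, 5 of 29 tested were called higher and 6 lower in DIDO3ΔE16. In DIDO3ΔCT+HADIDO3 it was 0 and 10. Of 8 tested trophoblast markers, 0 were called higher and 2 lower in DIDO3ΔE16, and 0 and 1 in DIDO3ΔCT+HADIDO3. Over all genes these shares were 10.9% and 4.12%, and 9.1% and 7.48%, respectively.

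The most abundant features higher in DIDO3ΔE16 were of genes active in ESC. Epop, which encodes a partner of elongin BC and the Polycomb complex PRC2, had 432, 451 and 435 TPM in the WT libraries, 872, 869 and 893 in those of DIDO3ΔE16 and 261, 252 and 228 in those of DIDO3ΔCT+HADIDO3, with differences of 1.0 ± 0.02 in DIDO3ΔE16 and -0.83 ± 0.06 in DIDO3ΔCT+HADIDO3. Ubxn2a, a cofactor of the ATPase p97, had WT levels of 338, 328 and 300.5 TPM, DIDO3ΔE16 levels of 575, 563 and 569 and DIDO3ΔCT+HADIDO3 levels of 183, 176 and 188. Dppa2, a chromatin factor of pluripotent cells, had 167, 162 and 152 TPM in the WT libraries, 341, 346 and 356 in those of DIDO3ΔE16 and 117, 108 and 106 in those of DIDO3ΔCT+HADIDO3. All of these exceeded 100 TPM in every library. 2210409E12Rik had WT levels of 133, 131 and 138 TPM, DIDO3ΔE16 levels of 449.8, 416 and 404 and DIDO3ΔCT+HADIDO3 levels of 38.7, 38.4 and 35.9, a larger difference at a similar level (1.66 ± 0.05 in DIDO3ΔE16 and -1.83 ± 0.04 in DIDO3ΔCT+HADIDO3). Nsf, the ATPase of membrane fusion, had 183, 185 and 179 TPM in the WT libraries, 273, 278 and 277 in those of DIDO3ΔE16 and 120.1, 128 and 124 in those of DIDO3ΔCT+HADIDO3, and its feature overlaps a feature of the opposite strand. Nynrin, named after its values were seen, had WT levels of 88.5, 93.1 and 90.7 TPM, DIDO3ΔE16 levels of 267, 257 and 269 and DIDO3ΔCT+HADIDO3 levels of 21.1, 20.1 and 21.2. Of 19 eligible features of core and naive pluripotency genes, Dppa2 was the only one in either set (5.26%, against 6.37% of all eligible features).

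**Figure D3:**
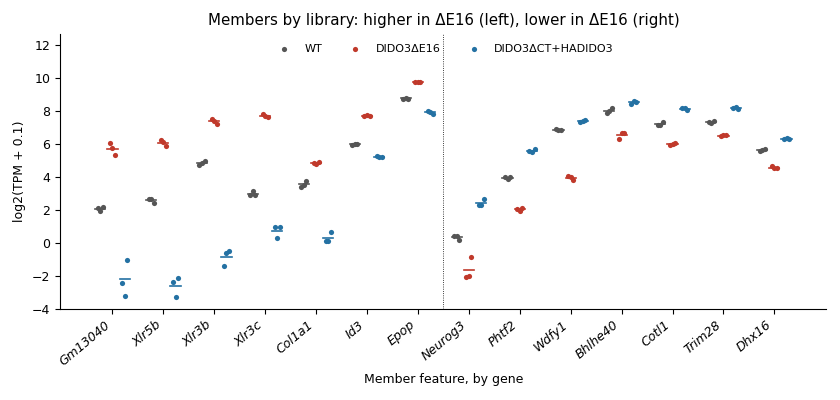
Level of 14 features as log2(TPM + 0.1), with 1 point per library and a bar at the group mean, features higher in DIDO3ΔE16 on the left and lower on the right of the dotted line. The rule makes the 3 groups separate in each feature. Levels range from about 10 on this scale for Epop in DIDO3ΔE16 to below 0 for Gm13040, Xlr5b and Xlr3b in DIDO3ΔCT+HADIDO3 and for Neurog3 in DIDO3ΔE16.

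Of the features lower in DIDO3ΔE16 and higher in DIDO3ΔCT+HADIDO3, 50.7% lay mostly in introns, against 27.6% of all eligible features. Among the features of this set with the largest differences in both lines (Tenm3, Neurog3, Fhad1, Phtf2, Rps6ka5, Tnfrsf11a, Mipol1, Tbc1d5, Rbm41, Trim2 and Igsf1), all but Neurog3 end upstream of the end of their gene. Tenm3, which encodes the adhesion protein teneurin-3, had 2.58, 1.54 and 1.57 TPM in the WT libraries, 0.147, 0.377 and 0.347 in those of DIDO3ΔE16 and 11.6, 9.89 and 11.1 in those of DIDO3ΔCT+HADIDO3 at a feature that lies 95% in introns and ends 48233 bases upstream of the gene end, with differences of -2.38 ± 0.38 in DIDO3ΔE16 and 2.49 ± 0.24 in DIDO3ΔCT+HADIDO3. Phtf2, a putative homeodomain transcription factor, had WT levels of 16.1, 14.6 and 15.7 TPM, DIDO3ΔE16 levels of 4.06, 3.74 and 4.25 and DIDO3ΔCT+HADIDO3 levels of 46.7, 46.5 and 52.8, 34639 bases upstream of the gene end. Another feature of Phtf2 that shares no base was stronger, with mean levels of 59.7 TPM in WT, 60.5 in DIDO3ΔE16 and, for DIDO3ΔCT+HADIDO3, 35.6, and its differences of 0.02 and -0.74 did not have the signs of the former. Other features of Fhad1 (3.12 and 2.65) and Tnfrsf11a (0.78 and 0.69) had positive differences in both lines. Mipol1 had 3.89, 3.58 and 4.06 TPM in the WT libraries, 0.782, 0.494 and 0.471 in those of DIDO3ΔE16 and 11.2, 12.2 and 11.5 in those of DIDO3ΔCT+HADIDO3, and Tbc1d5, which encodes a GTPase-activating protein for Rab7, had WT levels of 1.25, 0.973 and 0.978 TPM, DIDO3ΔE16 levels of 0.22, 0.333 and 0.284 and DIDO3ΔCT+HADIDO3 levels of 3.26, 3.22 and 3.51. Other features of Mipol1 that share no base had differences of -1.88, -1.49 and -1.96 in DIDO3ΔE16. In DIDO3ΔCT+HADIDO3 these were 0.16, 0.01 and 0.06.

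Tnfrsf11a, which encodes the receptor RANK, had 1.36, 2.18 and 1.22 TPM in the WT libraries, 0, 0.211 and 0.227 in those of DIDO3ΔE16 and 4.22, 5.18 and 5.24 in those of DIDO3ΔCT+HADIDO3 at a feature 80% in introns. Tnfrsf11b, its decoy counterpart osteoprotegerin and named after its values were seen, had the other direction, with 0.289, 0.468 and 0.342 TPM in WT and 2.18, 1.44 and 1.73 in DIDO3ΔE16, and was listed at 0 in DIDO3ΔCT+HADIDO3. Neurog3, the factor of endocrine progenitors of the pancreas and gut, had WT levels of 1.21, 1.23 and 1.02 TPM, DIDO3ΔE16 levels of 0.132, 0.15 and 0.459 and DIDO3ΔCT+HADIDO3 levels of 4.87, 4.89 and 6.16 at the end of its gene. Atp9a, which encodes a phospholipid flippase, was named after its values were seen: its feature, 33133 bases upstream of the gene end, had 9.43, 9.47 and 10.2 TPM in the WT libraries, 0.299, 1.04 and 0.787 in those of DIDO3ΔE16 and 22.2, 23.3 and 25.4 in those of DIDO3ΔCT+HADIDO3. Cadm1, a cell adhesion gene named in the same way, had WT levels of 4.89, 6.13 and 6.1 TPM, DIDO3ΔE16 levels of 0.168, 0.845 and 0.871 and DIDO3ΔCT+HADIDO3 levels of 13.4, 15 and 14.3.

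The place of the features in the annotation was not used to choose them. Of the 280 features lower in DIDO3ΔE16, 142 (50.7%) lay mostly in introns, whereas 41 of the 325 higher in DIDO3ΔE16 (12.6%) and 27.6% of the eligible features did. The end lay more than 2000 bases upstream of the end of the gene for 57.1%, 15.7% and 35.9%, respectively. Mostly outside genes were 27.9% of the features lower in DIDO3ΔE16, 54.5% of those higher and 41.5% of the eligible features. The lengths were alike, with medians of 2750, 2928 and 2791 bases. Reads of such a feature can come from a transcript that ends there, from unspliced RNA or from an overlapping exon, and TPM does not tell these apart.

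Intronic features that were in neither set were measured beside these. Their summed level was 59840 to 61640 TPM in WT, 59220 to 60290 in DIDO3ΔE16 and, for DIDO3ΔCT+HADIDO3, 63410 to 64400, and their median difference was -0.01 in DIDO3ΔE16 and 0.17 in DIDO3ΔCT+HADIDO3. Features mostly in exons and in neither set had a median difference of -0.01 and 0.06. Intronic features as a class were thus slightly higher in DIDO3ΔCT+HADIDO3, and their part in the composition of the set was not tested.

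**Figure D4:**
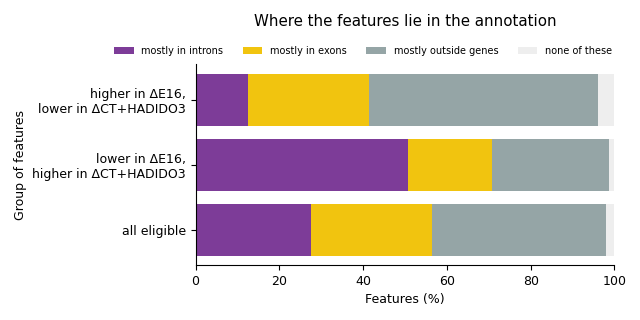
Share of features, in percent, that lie mostly (over 50% of their bases) in introns, in exons or outside genes, for both directions and for all eligible features. Introns hold 50.7% of the features lower in DIDO3ΔE16, 12.6% of those higher and 27.6% of the eligible features.

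At the ends of their own genes lay the most abundant features lower in DIDO3ΔE16. Bhlhe40, a transcriptional repressor linked to the circadian clock and hypoxia, had 233, 255 and 289 TPM in the WT libraries, 79.5, 101 and 104 in those of DIDO3ΔE16 and 344, 394 and 381 in those of DIDO3ΔCT+HADIDO3, with differences of -1.45 ± 0.15 in DIDO3ΔE16 and 0.53 ± 0.11 in DIDO3ΔCT+HADIDO3. Trim28, the corepressor recruited by KRAB zinc finger proteins, had WT levels of 165, 152 and 167 TPM, DIDO3ΔE16 levels of 88.5, 94.5 and 92 and DIDO3ΔCT+HADIDO3 levels of 293, 299.9 and 279.7. The Trim28 feature lies 92% downstream of the gene and overlaps a feature of the opposite strand, so its reads may belong in part to a neighbouring transcript. Cotl1, which binds actin, had 145, 144 and 163 TPM in the WT libraries, 61.8, 63.4 and 67.1 in those of DIDO3ΔE16 and 294, 288 and 266 in those of DIDO3ΔCT+HADIDO3. Ndrg1, a gene induced by hypoxia, had WT levels of 86.5, 65.8 and 105 TPM, DIDO3ΔE16 levels of 35.4, 58.8 and 60.6 and DIDO3ΔCT+HADIDO3 levels of 119.8, 154 and 161, and its WT and line libraries were more widely spread than those of the other abundant genes.

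Wdfy1, which encodes a FYVE-domain protein of early endosomes, had 3 features in the set. At the end of the gene it had 120.2, 116 and 117 TPM in the WT libraries, 16.3, 16 and 14 in those of DIDO3ΔE16 and 162, 171 and 179 in those of DIDO3ΔCT+HADIDO3, with differences of -2.93 ± 0.07 in DIDO3ΔE16 and 0.53 ± 0.04 in DIDO3ΔCT+HADIDO3. The intronic feature that ends 12612 bases upstream had WT levels of 17, 20.3 and 21.2 TPM, DIDO3ΔE16 levels of 2.72, 4.02 and 3.41 and DIDO3ΔCT+HADIDO3 levels of 31.1, 31.6 and 32.1. The other, 24141 bases upstream, had 13, 15.7 and 12.8 TPM in the WT libraries, 6.24, 5.34 and 4.76 in those of DIDO3ΔE16 and 22.3, 22.6 and 22.8 in those of DIDO3ΔCT+HADIDO3. Wdfy1 lies on chromosome 1, where features as a whole were higher in DIDO3ΔCT+HADIDO3.

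Id2 and Id3, inhibitors of basic helix-loop-helix factors and targets of BMP signalling, had opposite directions. Id3 had WT levels of 61.2, 65.3 and 65 TPM, DIDO3ΔE16 levels of 208, 214 and 206 and DIDO3ΔCT+HADIDO3 levels of 39.1, 37.4 and 36.6, and Id2 had 22.9, 18.6 and 21.7 TPM in the WT libraries, 7.7, 8.89 and 9.46 in those of DIDO3ΔE16 and 26.6, 30.5 and 33.8 in those of DIDO3ΔCT+HADIDO3. They were 2 of 15 eligible features of Nodal and BMP targets (13.3%, against 6.37% of all eligible features). No other feature of that list was in either set. The glypican genes Gpc4 and Gpc3, neighbours on chromosome X that encode coreceptors of growth factors, also had opposite directions. Gpc4 had WT levels of 105, 74.8 and 99.4 TPM, DIDO3ΔE16 levels of 159, 165 and 173 and DIDO3ΔCT+HADIDO3 levels of 42, 45.6 and 44.5, and Gpc3 had 6.79, 5.26 and 6.8 TPM in the WT libraries, 2.66, 4.21 and 3.85 in those of DIDO3ΔE16 and 8.88, 10.2 and 12.1 in those of DIDO3ΔCT+HADIDO3. Of solute carriers, 5 of 160 eligible features were higher and 6 lower in DIDO3ΔE16, together 6.88%, near the 6.37% of all eligible features. The zinc exporter gene Slc30a1 had WT levels of 37.4, 33.2 and 33.2 TPM, DIDO3ΔE16 levels of 22.1, 22.6 and 23 and DIDO3ΔCT+HADIDO3 levels of 54.5, 54.7 and 61.9. Of 47 eligible ion channel features, 4 (Cacna1a, Clcn2, Kcnh4 and Kcnt1) were lower in DIDO3ΔE16 (8.51%, against 2.95% of all eligible features) and 0 higher. Over the list, by the most abundant feature of each gene, 28 of 114 tested genes were called higher and 4 lower in DIDO3ΔE16. Over all genes these shares were 10.9% and 4.12%. In DIDO3ΔCT+HADIDO3 19 of 109 were called higher and 6 lower, against 9.1% and 7.48%. Other features of Cacna1a that share no base had differences of 0.05 and 1.49 in DIDO3ΔE16.

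Receptor genes of LIF, the factor that sustains these cells, were in the set lower in DIDO3ΔE16. Il6st, which encodes the shared receptor subunit gp130, had 2.49, 2.23 and 2.32 TPM in the WT libraries, 0.882, 0.644 and 0.639 in those of DIDO3ΔE16 and 5.17, 4.71 and 5.15 in those of DIDO3ΔCT+HADIDO3 at a feature that ends 26473 bases upstream of the gene end. Lifr, the LIF receptor, had WT levels of 15.2, 17.3 and 16.4 TPM, DIDO3ΔE16 levels of 11.5, 10.4 and 10.5 and DIDO3ΔCT+HADIDO3 levels of 27.2, 24.8 and 29.8 at a feature 11756 bases upstream of the gene end. Another feature of Il6st that shares no base had mean levels of 139.5 TPM in WT, 115.8 in DIDO3ΔE16 and, for DIDO3ΔCT+HADIDO3, 144.4, and was thus far stronger and changed less. They were 2 of 10 eligible features of the LIF and STAT3 pathway (20%, against 2.95% of all eligible features in this direction). With each gene represented by its most abundant feature, 0 of 17 tested genes of the list were called higher and 2 lower in each comparison, against 10.9% and 4.12% of all genes in DIDO3ΔE16 and 9.1% and 7.48% in DIDO3ΔCT+HADIDO3. Eras, a Ras-type gene of ESC named after its values were seen, had 18.4, 23.9 and 20.4 TPM in the WT libraries, 12.5, 13.3 and 18 in those of DIDO3ΔE16 and 48, 51.4 and 55.8 in those of DIDO3ΔCT+HADIDO3.

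Of 34 eligible features of genes of mRNA 3′ end processing and termination, 2 (5.88%, against 6.37% of all eligible features in either direction) were in the set lower in DIDO3ΔE16 and 0 in the other. Dhx16, an RNA helicase of the spliceosome, had WT levels of 47.1, 50.6 and 52.3 TPM, DIDO3ΔE16 levels of 24.9, 23 and 23 and DIDO3ΔCT+HADIDO3 levels of 79.6, 84.1 and 77.5, with differences of -1.08 ± 0.06 in DIDO3ΔE16 and 0.69 ± 0.06 in DIDO3ΔCT+HADIDO3. Its feature lies 94% outside the gene and overlaps a feature of the opposite strand. Ssu72, a phosphatase of the RNA polymerase II C-terminal domain, had 19.8, 18.4 and 15.4 TPM in the WT libraries, 12.1, 10.3 and 13.8 in those of DIDO3ΔE16 and 27.8, 26 and 27.6 in those of DIDO3ΔCT+HADIDO3 at a feature 17201 bases upstream of the gene end. In this list 1 of 33 tested genes was called higher and 2 lower in DIDO3ΔE16, and 0 higher and 1 lower in DIDO3ΔCT+HADIDO3, where 10.9%, 4.12%, 9.1% and 7.48% of all genes were, respectively. Mbd2, which binds methylated DNA, had WT levels of 8.57, 7.47 and 9.59 TPM, DIDO3ΔE16 levels of 5.04, 4.92 and 4.6 and DIDO3ΔCT+HADIDO3 levels of 20.8, 23.3 and 23.8 at an intronic feature. Another feature of Mbd2 had mean levels of 15.04 TPM in WT, 16.5 in DIDO3ΔE16 and, for DIDO3ΔCT+HADIDO3, 8.84, and its differences of 0.14 and -0.76 had the opposite signs. No feature was in either set among those of polycomb and trithorax genes (21 eligible features), imprinted genes (15), p53 targets (9), cholesterol synthesis (15), glycolysis and hypoxia response (20) or histones (23). The same held for cytosolic (48) and mitochondrial (62) ribosomal proteins and oxidative phosphorylation (66). With 6.37% of all eligible features in either set, a count of 0 says little for the short lists, and it does not mean no change. Of 54 tested histone genes, 9 were called higher in DIDO3ΔE16 and 12 in DIDO3ΔCT+HADIDO3, and 0 lower in either.

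Most genes were represented by 1 feature. The set held several features of 17 genes, 37 features in all, and for 16 of the genes they had the same direction. The exception was Rbm41, which encodes an RNA-binding protein. At the end of the gene it had 0.428, 0.27 and 1.12 TPM in the WT libraries, 1.35, 1.14 and 1.2 in those of DIDO3ΔE16 and 0.172, 0.081 and 0.132 in those of DIDO3ΔCT+HADIDO3, and 78070 bases upstream, in a feature mostly in introns, WT levels of 1.82, 2.27 and 1.52 TPM, DIDO3ΔE16 levels of 0.537, 0.407 and 0.823 and DIDO3ΔCT+HADIDO3 levels of 6.37, 5.36 and 6.22. WT replicate 4 was close to the DIDO3ΔE16 values of the former feature, at a level near 1 TPM. Features outside the sets that share no base and belong to the same genes were compared with them. Of 20 such features in 19 genes higher in DIDO3ΔE16, 6 had the signs of the member in both lines. Of 123 in 88 genes lower in DIDO3ΔE16, 47 did, and their median differences were -0.05 and 0.26. These other features had by definition failed the rule of opposite change, so their shares of matching signs follow in part from the selection. Nothing is read from these counts.

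Overlap with a feature of the opposite strand was found for 10.8% of the features higher and 11.1% of those lower in DIDO3ΔE16, against 15.1% of the eligible features. The partner had the same sign as the member in both lines in 6 of 33 and 9 of 25 cases, and in 34.0% of the overlapping eligible features. Reads from such a pair can be told apart only if strand was used in the counting, which is not given for these values.

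By chromosome, the share of features higher in DIDO3ΔE16 was 6.29% on X (19 of 302 eligible features) and 1.69% to 4.93% on the autosomes, and the Xlr run accounts for 10 of the 19. On Y it was 33.3%, the 2 features of Zfy1 and Gm2098 among 6. The share of features lower in DIDO3ΔE16 was 4.89% on chromosome 1 (27 of 552) and 1.60% to 3.91% on the other autosomes and X. None of the 6 eligible features on Y was among them. Chromosome 1 stood apart in DIDO3ΔCT+HADIDO3: the median difference of its eligible features from WT was 0.41, against -0.01 to 0.14 on the other autosomes and X, and 0.40, 0.39 and 0.42 in the 3 libraries taken singly. In DIDO3ΔE16 it was 0.00. In each stretch of 20 Mb along the chromosome the DIDO3ΔCT+HADIDO3 median lay between 0.28 and 0.51. When each difference was taken relative to the median of its chromosome, the count on chromosome 1 changed from 27 to 5 features lower in DIDO3ΔE16 and from 15 to 28 higher. Over all chromosomes it changed from 280 to 246 and from 325 to 358, with 234 and 315 of the original features kept. The features of chromosome 1, among them those of Wdfy1, Slc30a1 and Tnfrsf11a, therefore partly carry a difference shared by the whole chromosome in DIDO3ΔCT+HADIDO3. Its origin was not tested.

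**Figure D5:**
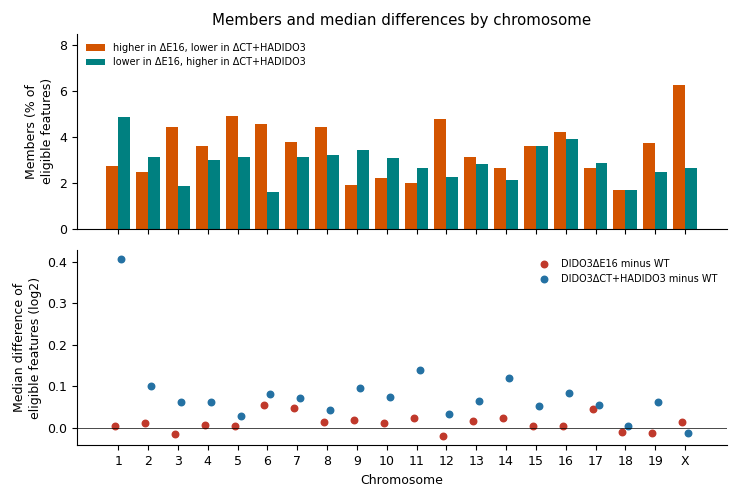
Upper panel, features of each direction as a percent of the eligible features of the chromosome; lower panel, median difference from WT of all eligible features, in log2(TPM + 0.1), for both lines. Of the chromosomes drawn, X has the highest share of features higher in DIDO3ΔE16 (6.29%), and chromosome 1 has the highest share lower in DIDO3ΔE16 (4.89%) and a DIDO3ΔCT+HADIDO3 median of 0.41. Y, with 6 eligible features, is not drawn.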

How the data were processed

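The values are TPM as deposited by the authors, made with StringTie (1.3.3, per the submitters' processing notes) for each library and feature, a UCSC 3′UTR with 2 kb added. The reads had been aligned to mm10 with BWA-MEM (0.7.15), and duplicates had been removed with Picard. No strand option stands in the command of the file headers, and TPM was not scaled between libraries. Duplicate removal and the added 2 kb can change the level of abundant features and of features next to other genes. Mean coverage in the deposited GTF attributes was used for depth only (1.46 to 2.61 Gb in features per library); counts were not used here, so no counting interval is given.

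Gene symbols and the place of each feature came from GENCODE M21 (mm10), mature ends from its transcripts and promoters from RefSeq (GRCm38.p6). Features were chosen on log2(TPM + 0.1) without scaling, as given with the results. For the limma fits (limma 3.58.1, R 4.3.3, tested on simulated data), only features above 0 TPM in all libraries compared were tested, trimmed means of log2 ratios (30% at each end) set the scaling, and moderated 2-sided tests with trend and robust estimation were adjusted by Benjamini-Hochberg. With 3 libraries in each group, the smallest exact permutation p of a single value is 0.1. Tables and figures were made with Python (3.11.15), numpy (2.4.6), pandas (2.3.3) and matplotlib (3.10.9). The labels do not say that replicates are separate cultures, so p-values measure only the spread between these libraries.

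Named genes are, in each direction, the 12 features with the largest smaller difference and the 5 with the highest mean TPM, those in a gene list, named in the paper or near a member of the same symbol stem, families of 4 or more, and the 3 features on each side of the threshold. Other genes are marked as named after their values were seen. Some features that meet this rule are not reported here. The criteria and gene lists were chosen with earlier results of these data known. Alternatives were pseudocounts of 0.01 and 1, scalings, filters, sizes of 0.7 and 1, all features, no feature of the opposite strand, WT replicate 2-3 alone, 1 fit of all 9 libraries, a block of replicate numbers, and leave-one-out fits. Leaving out features mostly in introns, chromosome 1 or X and Y, centring on chromosome medians, and leaving single genes out of marker sums, were chosen after seeing the data. All libraries in the tables were used.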

Additional observations from a re-analysis of the deposited data

How the results depend on the processing

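No named feature and none of the 605 features changed the sign of a difference from WT under the pseudocounts, scalings and left-out libraries tried. For the 605 features the rule largely fixed this result. All values of each line lay outside the WT range, so no pseudocount or left-out library could change a sign. The scalings moved the median differences by much less than the 0.5 that the rule asked for. The lack of sign changes is therefore no test of these features. Relative to no scaling, trimmed mean scaling moved the median difference of the eligible features by -0.06 in DIDO3ΔE16 and -0.09 in DIDO3ΔCT+HADIDO3, and quantile normalization by -0.04 and -0.07. The 325 features higher in DIDO3ΔE16 became 199 with a TPM above 5, 128 with a size of at least 1 and 545 over all features, shared bases included. The 280 lower in DIDO3ΔE16 became 134 with a size of at least 0.7, 52 with a size of at least 1, 441 over all features and 138 without features mostly in introns. The other alternatives stayed within 1.5 times these counts, and leaving out each library in turn gave 332 to 352 and 281 to 307. Features called by limma numbered 3119 in DIDO3ΔE16 against WT, 3430 in DIDO3ΔCT+HADIDO3 against WT and 5780 between the lines, and 2534 to 2843, 2915 to 3301 and 5337 to 5480 when a library was left out. Between the lines 3618 were called among features that share no base; fewer features were tested there.

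With the replicate number as a block, limma called 0 features in DIDO3ΔE16 against WT (5250 at an unadjusted p under 0.05), 0 in DIDO3ΔCT+HADIDO3 against WT (5935) and 4683 between the lines. Same-numbered libraries did not deviate together (r -0.15 to 0.00 over 8000 features), which gives no sign of pairing but cannot exclude it. In the fits against WT, WT replicate 4 and replicate 3 of the line had no partner of their number. Fewer residual degrees of freedom remain under the block. Levels under about 1 TPM rest on few reads, and differences of features at or near 0 in a group depend on the added 0.1.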
